A study of Mus musculus with 6 samples.

Results

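Kinesins are the motor proteins that walk along microtubules, and 40 kinesin genes were found among the 22287 genes listed for the apical end of the mouse lower first molar. They were chosen by symbol alone, as every gene named Kif or Kifc with a number and at most 1 letter from a to c, together with Cenpe, which encodes the kinesin CENP-E. They were sorted by known role into 14 mitotic, 9 ciliary and 14 transport kinesins, which left 3 others. The control group was Arid1a fl/fl (3 libraries, replicates 2, 3 and 5) and the mutant group was Gli1-CreER;Arid1a fl/fl (3 libraries, replicates 3, 4 and 5), all on C57BL/6. Every mouse was given tamoxifen at postnatal day 3.5, as 20 mg/ml in corn oil and 1.5 mg per 10 g of body weight, and molars were taken at postnatal day 7.5. CreER is a recombinase that tamoxifen switches on. It is driven here by Gli1 and so acts in cells that respond to Hedgehog signals, while the RNA came from all cells of the apical region. Only the mutants carried CreER, so an effect of the recombinase and an effect of losing Arid1a cannot be told apart. The labels name no animal or pool behind a library. The p-values therefore rest on how far these libraries differ, a spread that may be technical.

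A kinesin uses ATP to step along a microtubule, or to take its end apart. Mitotic kinesins build the spindle, move chromosomes and divide the cell, and their messages are made mainly in dividing cells, in G2 and mitosis. Ciliary kinesins carry cargo into the primary cilium, where vertebrate Hedgehog signals are read, and Kif7 sits at the cilium tip and regulates the Gli factors. Transport kinesins carry vesicles, organelles and RNA through the cytoplasm and are best known from axons. In a growing root, dividing progenitors at the apical end leave the cell cycle as they turn into odontoblasts and other root cells.

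The libraries held 20453247 to 24255352 estimated gene counts, and all 40 kinesin genes were among the 17305 genes that passed the filter on low counts and were tested. The targeted gene Arid1a stood at 210, 202 and 204 CPM (counts scaled by TMM to a common library size) in control replicates 2, 3 and 5 and at 120, 134 and 130 CPM in mutant replicates 3, 4 and 5. Arid1a thus fell in the mutants, with a log2 fold change of -0.68, and passed edgeR's quasi-likelihood test (SE 0.07, adjusted p = 0.0129). The tissue label was checked against odontoblast genes, which make dentin: all 8 listed were present in all libraries, led by Col1a1 and Dspp. The 10 listed genes of dental epithelium were present in all libraries too, so the samples were not mesenchyme alone.

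Measured per kilobase of exon, the most abundant kinesins in control tissue were transport and unclassed motors, and mitotic kinesins were scarce. Kif1c, which moves vesicles and integrins, stood at 25.4 ± 2.04 CPM per kb (SD, n = 3). Kif26a, an atypical kinesin without motor activity, came next at 20.9 ± 0.706, before the conventional kinesin heavy chain Kif5b at 19.3 ± 0.129 and the minus-end motor Kifc3 at 13.4 ± 1.56 CPM per kb. Kif26b followed at 11.2 ± 1.13 and Kif7 at 10.9 ± 1.08 CPM per kb, which do not differ beyond their spread. The highest mitotic kinesin, Kif20a, stood at 2.47 ± 0.496 CPM per kb, and the 14 mitotic members ran from 0.263 to 2.47. The value of Kif20a may include reads of Cdc23, which overlaps it on the opposite strand. Ciliary kinesins spanned 0.0980 to 10.9 CPM per kb, and 4 of the 9, the motile cilium genes Kif6, Kif19a and Kif27 and the dendritic and ciliary motor gene Kif17, averaged under 1 CPM, with 6 reads in the lowest library. Mitotic kinesins made up 8.13%, 6.98% and 5.88% of all kinesin CPM in control replicates 2, 3 and 5 and 9.39%, 12.7% and 12.5% in mutant replicates 3, 4 and 5. The share in each mutant library was thus above that in each control library.

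None of the 40 kinesin genes passed the test between mutants and controls at an adjusted p under 0.05 (edgeR quasi-likelihood, adjusted over all 17305 genes), where 1.86% of all genes passed. The smallest adjusted p was 0.0634, for Kif11. At an unadjusted p under 0.05 there were 17 of 40, 13 of them higher and 4 lower in the mutants, where 15% of all genes had such a p (7.13% higher and 7.83% lower). In 16 of the 40 the mutant and control libraries did not overlap, 12 higher and 4 lower, where 21.3% of all genes had groups apart. DESeq2 called 8 of the 40, which were Cenpe, Kif11, Kif20a, Kif23, Kif4, Kif7, Kif26a and Kifc3, where DESeq2 called 5% of the 17073 genes it tested. Every mitotic kinesin had a positive fold change, against 5 of 9 ciliary and 4 of 14 transport kinesins, where 52% of all tested genes were positive.

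**Figure D1:**
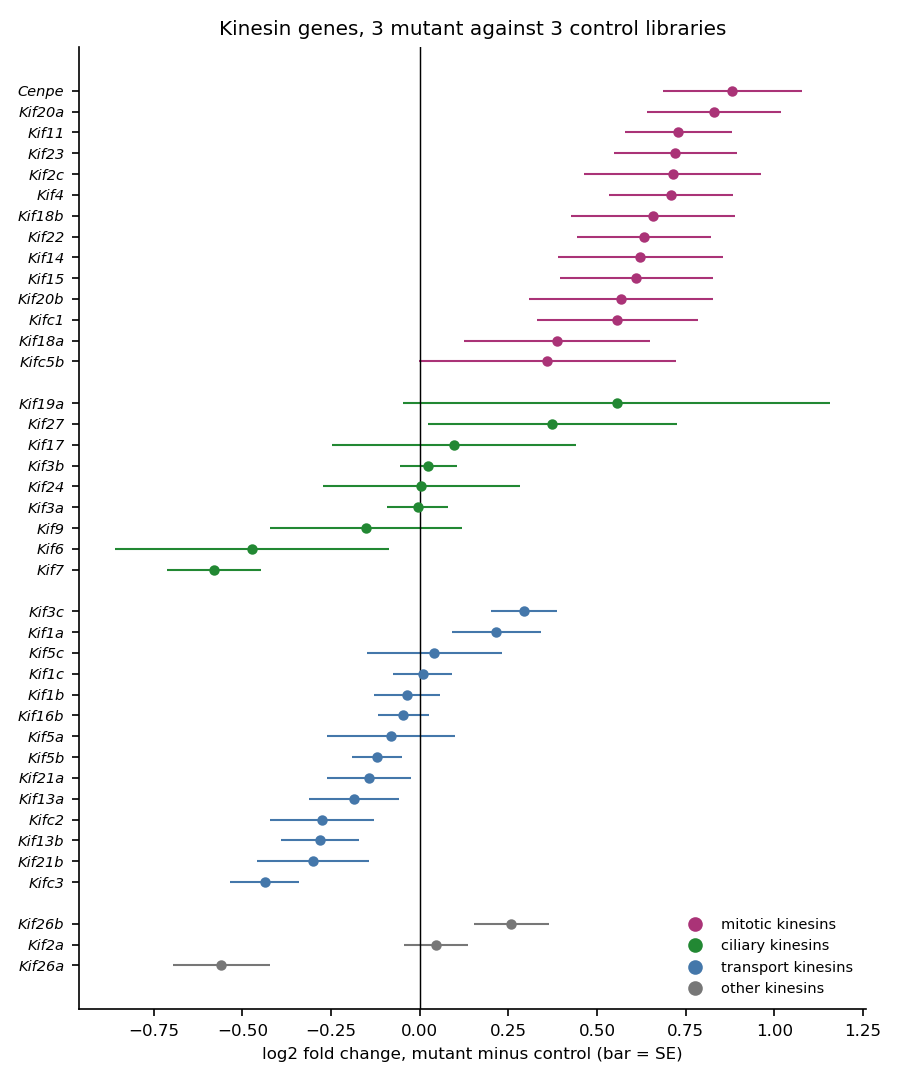
Log2 fold change of each of the 40 kinesin genes, mutant minus control (x axis), with its SE as a bar, grouped by class. All 14 mitotic kinesins lie right of 0, while the ciliary and transport kinesins lie on both sides.

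The 14 mitotic kinesins had a median log2 fold change of 0.65, against 0.01 over all genes tested, and ran from 0.36 (Kifc5b) to 0.88 (Cenpe). In fold terms this is 1.28 to 1.84 times the control level. The mutant libraries lay above every control library for 9 of the 14, where 10.6% of all genes had groups apart in that direction. At an unadjusted p under 0.05 there were 11 of 14, all higher, where 7.13% of all genes were higher at that level. None passed across all genes. The SD of the fold changes among the 14 was 0.15.

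Of the spindle motors, Kif11 had the highest CPM. Kif11, the tetrameric motor that pushes spindle poles apart, stood at 13.9, 12.3 and 13.9 CPM in control replicates 2, 3 and 5 and at 17.8, 26.5 and 22.3 CPM in mutant replicates 3, 4 and 5. Its groups did not overlap, and the lowest mutant library was replicate 3 (log2 fold change 0.73, SE 0.15, adjusted p = 0.0634). On mm10 it occupies chromosome 19 from base 37376403 to 37421859, as a protein-coding gene. Kif15, which can share the work of Kif11, measured 7.93 ± 1.99 CPM among controls and 12.1 ± 2.47 among mutants (SD, n = 3, adjusted p = 0.229), and its groups overlapped. Kifc1, a minus-end motor that focuses spindle poles, and its paralog Kifc5b share sequence, with 24.7% of the 75-base stretches of Kifc5b also found in other genes, so their reads could be split wrongly. Kifc1 stood at 4.99 ± 1.51 and 7.36 ± 0.611 CPM in controls and mutants (adjusted p = 0.299), and Kifc5b at 2.59 ± 0.218 and 3.34 ± 1.63 CPM (SD, n = 3, adjusted p = 0.714).

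Motors of the chromosomes and kinetochores showed the largest fold change of the family. Cenpe, which carries chromosomes to the spindle equator, stood at 11.9, 9.78 and 7.89 CPM in control replicates 2, 3 and 5. In mutant replicates 3, 4 and 5 it stood at 14.0, 20.3 and 20.3 CPM. All mutant libraries were above all controls (log2 fold change 0.88, SE 0.20, adjusted p = 0.0767), and the gene lies on chromosome 3 from 135212537 to 135273611. Kif22, a chromosome arm motor, stood at 8.51, 8.29 and 5.33 CPM in the controls and at 10.2, 12.8 and 11.4 CPM in the mutants, in the same replicate order (log2 fold change 0.63, SE 0.19, adjusted p = 0.158). Its groups did not overlap, and control replicate 5 was lowest. Kif4, which shapes mitotic chromosomes and the midzone, stood at 6.47, 5.20 and 5.66 CPM in controls and at 7.46, 10.9 and 9.97 CPM in mutants. The groups were again apart, with mutant replicate 3 nearest the controls (log2 fold change 0.71, SE 0.17, adjusted p = 0.0984). On the opposite strand 15.1% of the exon length of Kif4 lies within exons of Pdzd11, which itself had a log2 fold change of -0.01. Of the microtubule depolymerases and length regulators, Kif2c (log2 fold change 0.71, adjusted p = 0.225), Kif18a (0.39, adjusted p = 0.555) and Kif18b (0.66, adjusted p = 0.229), only Kif18b had groups that did not overlap.

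Motors of cell division gave similar values. Kif20a, which brings Aurora B to the midzone, stood at 12.8, 10.8 and 8.49 CPM in control replicates 2, 3 and 5 and at 15.1, 20.0 and 22.1 CPM in mutant replicates 3, 4 and 5. Every mutant library exceeded every control (log2 fold change 0.83, SE 0.19, adjusted p = 0.0814). Exons of Cdc23 on the opposite strand cover 29.3% of the exon length of Kif20a, and Cdc23 had a log2 fold change of 0.05 (adjusted p = 0.813). Kif23, the motor of the centralspindlin complex, stood at 12.3, 9.41 and 9.31 CPM in controls and 13.5, 19.3 and 18.4 CPM in mutants, in the same replicate order. Mutant replicate 3 was close to control replicate 2, yet the groups did not overlap (log2 fold change 0.72, SE 0.17, adjusted p = 0.0930). Kif14, which acts late in cytokinesis, had log2 fold change 0.62 (adjusted p = 0.254) with groups apart, and Kif20b had 0.57 (adjusted p = 0.361) with groups that overlapped.

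**Figure D2:**
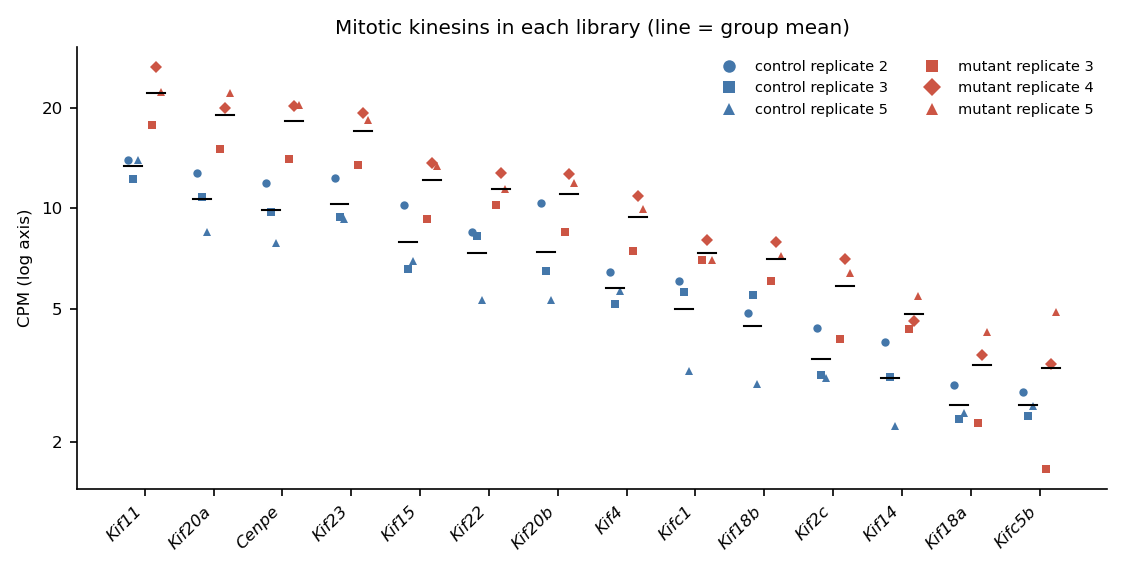
CPM of each of the 14 mitotic kinesins (log axis) in the 3 control and 3 mutant libraries, with the group mean as a line. Mutant replicates 4 and 5 are at the top for every gene, and mutant replicate 3 lies nearer to the controls.

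The promoters of mitotic kinesins are shown because the members' fold changes share a sign, though none passed the test, and because mitotic genes often carry a cell cycle genes homology region (CHR, TTTGAA), which the MuvB complex binds, near a CCAAT box, which NF-Y binds. Of the 40 members, 32 matched by symbol a RefSeq promoter window on GRCm38.p6, from 250 bases before the start site to 50 after. TTTGAA on either strand was found in the windows of 11 of 13 mitotic kinesins (84.6%), where 20.2% of all 27025 genes with a window and 14.4% of the 11577 among them that were tested here had it. It was found in 1 of 8 ciliary and 1 of 8 transport kinesins. CCAAT on either strand was found in 9 of 13 mitotic, 5 of 8 ciliary and 1 of 8 transport kinesins, where 41.1% of all genes had it, and 8 mitotic windows held both motifs, as did 8.97% of all genes. From 100 bases before the start site to 20 after, TTTGAA was found in 7 of 13 mitotic windows and in 7.87% of all genes. These are matches of letters, which do not overlap between the motifs, and no binding was measured. Below, capitals mark TTTGAA or CCAAT, or their reverse complements, in the 6 mitotic promoters that held TTTGAA in this shorter stretch and share no sequence with a paralog, in Cenpe, which had a CCAAT match and no TTTGAA, and in Kif7 as a ciliary promoter with neither. The stretches are at chr19:37376282-37376401 on the plus strand, chr7:127042401-127042520 on the minus strand, chr9:122950981-122951100 on the plus strand, chr9:61946780-61946899 on the minus strand, chr11:102925105-102925224 on the minus strand, chr19:34922258-34922377 on the plus strand, chr3:135212463-135212582 on the plus strand and chr7:79715688-79715807 on the minus strand, each read on the strand of the gene.
Kif11 promoter: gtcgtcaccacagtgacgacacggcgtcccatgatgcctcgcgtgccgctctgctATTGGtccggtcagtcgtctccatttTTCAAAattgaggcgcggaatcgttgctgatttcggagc
Kif22 promoter: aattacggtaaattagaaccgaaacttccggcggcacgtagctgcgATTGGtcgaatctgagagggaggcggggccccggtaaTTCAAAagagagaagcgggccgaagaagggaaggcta
Kif15 promoter: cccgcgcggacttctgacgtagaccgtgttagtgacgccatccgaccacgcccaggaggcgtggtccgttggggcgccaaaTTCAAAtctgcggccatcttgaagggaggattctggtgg
Kif23 promoter: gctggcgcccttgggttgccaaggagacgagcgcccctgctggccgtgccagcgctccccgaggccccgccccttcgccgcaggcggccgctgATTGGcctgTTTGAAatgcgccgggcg
Kif18b promoter: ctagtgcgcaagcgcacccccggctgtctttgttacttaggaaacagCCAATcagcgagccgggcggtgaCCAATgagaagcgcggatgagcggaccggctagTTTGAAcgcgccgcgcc
Kif20b promoter: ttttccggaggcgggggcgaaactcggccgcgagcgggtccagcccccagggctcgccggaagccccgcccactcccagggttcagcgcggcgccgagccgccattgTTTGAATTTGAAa
Cenpe promoter: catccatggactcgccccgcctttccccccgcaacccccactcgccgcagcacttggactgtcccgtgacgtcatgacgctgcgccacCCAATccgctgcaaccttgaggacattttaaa
Kif7 promoter: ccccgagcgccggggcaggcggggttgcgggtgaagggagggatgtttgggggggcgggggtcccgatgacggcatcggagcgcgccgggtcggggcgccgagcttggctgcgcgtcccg

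In Kif11, Kif22 and Kif15 the TTTGAA match nearest the start site began 19, 17 and 19 bases before it, on the strand opposite to the gene. In Kif23 and Kif18b it began at base 3 and base 4 of the transcript, on the gene strand, and in Kif20b a pair of matches stood side by side from base 8. Kif18a, which had no match to either motif, was with Kifc5b among the mitotic members with the smallest fold changes. Kifc5b had a TTTGAA match at base 30 and CCAAT matches that began 46 and 17 bases before the start site. Cenpe, with the largest fold change, had no TTTGAA match in its window. A link between the matches and the fold changes was not tested.

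**Figure D3:**
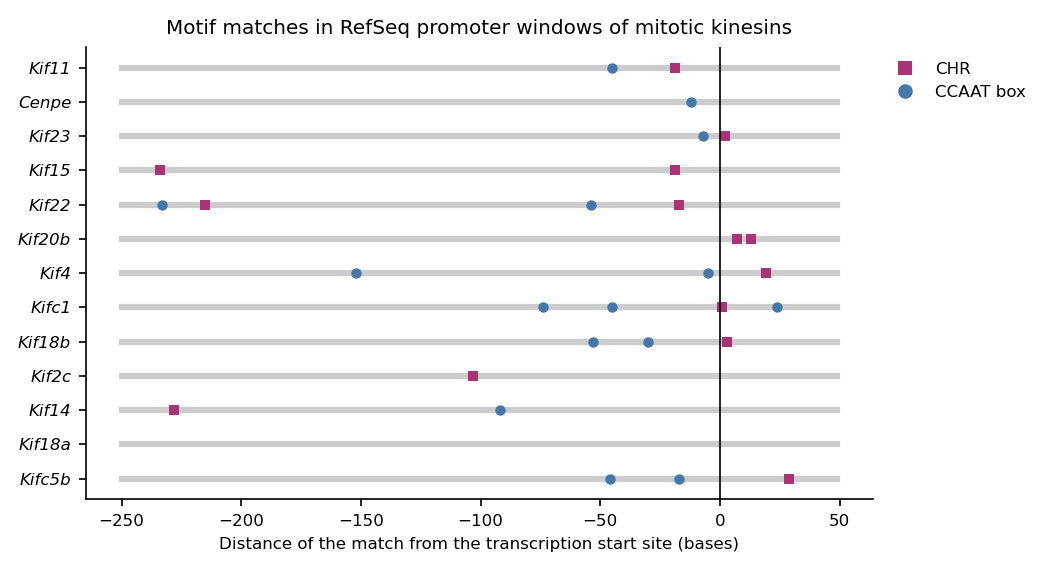
Distance in bases from the RefSeq start site (0, black line) of each TTTGAA (CHR, squares) and CCAAT (circles) match, on either strand, in the promoter windows of 13 mitotic kinesins. Of the 13 rows, 7 have a TTTGAA match between 100 bases before the start site and 20 after, and Kif18a has no match.

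The mitotic class differed between libraries of the same genotype. Summed over the 14 genes it stood at 112, 91.1 and 79.5 CPM in control replicates 2, 3 and 5 and at 121, 171 and 165 CPM in mutant replicates 3, 4 and 5. The groups did not overlap, but mutant replicate 3 was nearer to control replicate 2 than to the other mutants. The lowest library was control replicate 5 for 9 of the 14 genes, and the highest was mutant replicate 4 for 9 and mutant replicate 5 for 5. On the log2(CPM + 1) scale, the median member lay above its control mean by 0.38, 0.74 and 0.70 in mutant replicates 3, 4 and 5. With mutant replicate 3 alone against the controls, a fit added after the data were seen, the class median was 0.40 and 12 of 14 genes were positive. Without mutant replicate 3, 5 mitotic kinesins (Cenpe, Kif11, Kif20a, Kif23 and Kif4) passed the test, where 1.38% of all genes passed in that fit, and the class median was 0.76. The same 5 passed with scaling to library totals, where 3% of all genes passed. Without control replicate 2 the median was 0.82, and without control replicate 5 it was 0.50, with no member passing in either case.

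**Figure D4:**
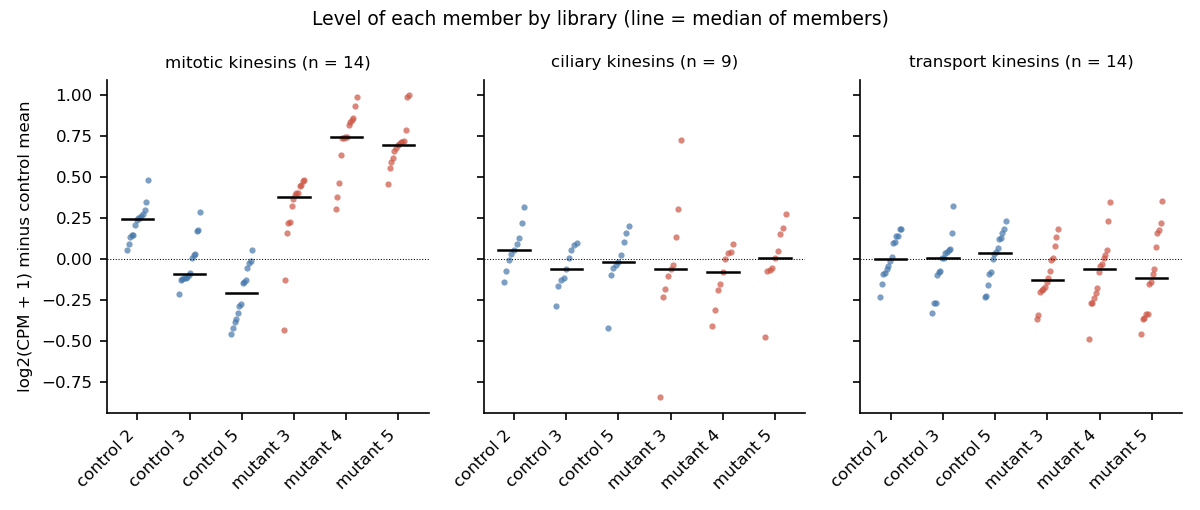
Level of each member in each library, as log2(CPM + 1) minus the mean of the 3 controls, with the median of the members as a line. The mitotic medians are 0.38, 0.74 and 0.70 in mutant replicates 3, 4 and 5, while the ciliary and transport medians stay within 0.13 of 0.

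Markers of red blood cell precursors had higher sums in the mutant libraries. The 13 erythroid markers in the table summed to 1810, 1951 and 1425 CPM in control replicates 2, 3 and 5 and to 2368, 5516 and 3888 CPM in mutant replicates 3, 4 and 5, and were led by Hba-a2 and Hbb-bs. Of the 8 tested, 7 had positive fold changes and 0 passed. At an unadjusted p under 0.05 there were 5, all higher, where 7.13% of all genes were higher at that level. Hemgn was at 0 in 1 library, and the others were above 0 in all. In mutant replicate 3 the mean log2(CPM + 1) of these 8 was 5.24, within the control range of 4.87 to 5.38, and it was 6.42 and 6.04 in mutant replicates 4 and 5. With this mean as a term in the model, the median of the mitotic kinesins was 0.33, against 0.65 without it, and 12 of 14 were positive. The mean was above all controls in mutant replicates 4 and 5, so this fit cannot tell the erythroid level and the genotype apart. In bulk tissue, more cells of a kind and more RNA per cell cannot be told apart. The 8 macrophage markers, all above 0, summed to 209 to 255 CPM in controls and 283 to 366 in mutants, and all 8 had positive fold changes with 1 passing (Cd68), where 0.659% of all genes rose. The 10 epithelial markers, led by the enamel matrix gene Amelx, went the other way, from 179200 to 278400 CPM in controls and 68400 to 113800 in mutants, with 1 of 10 passing (Amelx, lower), where 1.2% of all genes fell. The 8 endothelial markers, none at 0, summed to 276 to 321 CPM in controls and 324 to 340 in mutants, with 7 positive and 0 passing. The part of macrophages, epithelium and vessels in the kinesin values was not tested.

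Genes of proteins that work with the mitotic kinesins gave values like theirs. Of 16 partner genes, 15 had positive fold changes and 0 passed, with a median of 0.65. At an unadjusted p under 0.05 there were 15, all higher, where 7.13% of all genes were higher at that level. Birc5, a subunit of the chromosomal passenger complex, measured 7.77 ± 0.808 CPM among controls and 12.2 ± 1.33 among mutants (SD, n = 3, log2 fold change 0.65, adjusted p = 0.0634). Racgap1, the partner of Kif23 in centralspindlin, stood at 15.0 ± 2.04 and 24.2 ± 3.87 CPM (SD, n = 3, log2 fold change 0.69, adjusted p = 0.0735). Tpx2, which binds Kif11 on the spindle, stood at 14.8 ± 3.43 and 25.7 ± 3.90 CPM (SD, n = 3, log2 fold change 0.79, adjusted p = 0.0836). In these 3 genes the mutant libraries lay above all controls. That held for 9 of the 16 partners, where 10.6% of all genes had groups apart in that direction.

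The 9 ciliary kinesins had a median log2 fold change of 0.00, and ran from -0.58 (Kif7) to 0.56 (Kif19a). None passed the test, and 1, Kif7, had an unadjusted p under 0.05, where 15% of all genes had such a p. Kif7 stood at 51.6, 44.2 and 53.5 CPM in control replicates 2, 3 and 5 and at 27.2, 37.1 and 35.5 CPM in mutant replicates 3, 4 and 5. Each mutant library was below each control, with mutant replicate 3 lowest (log2 fold change -0.58, SE 0.13, adjusted p = 0.0807), where 10.8% of all genes had groups apart in that direction. The gene lies on chromosome 7 from 79698098 to 79715720, and 19.1% of its exon length is shared with 9330171B17Rik on the opposite strand, which averaged 0.901 CPM in controls and 0.867 in mutants. DESeq2 called Kif7 (adjusted p = 0.00389). The motor subunits of heterotrimeric kinesin-2, which drives transport up the cilium, gave small fold changes. Kif3b stood at 40.3, 42.0 and 39.0 CPM in control replicates 2, 3 and 5 and at 44.5, 40.4 and 38.4 CPM in mutant replicates 3, 4 and 5, with full overlap (log2 fold change 0.02, SE 0.08, adjusted p = 0.924). Kif3a likewise stood at 25.6 ± 1.92 and 25.5 ± 0.988 CPM (SD, n = 3, log2 fold change -0.01, SE 0.09, adjusted p = 0.983). Kif24, which restrains cilium assembly at the mother centriole, stood at 3.13 ± 1.03 and 3.15 ± 0.540 CPM (SD, n = 3, adjusted p = 0.997).

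The scarce ciliary motors gave wide errors. Kif19a, which shortens motile cilia, stood at 0.486, 0.655 and 0.544 CPM in control replicates 2, 3 and 5 and at 1.58, 0.260 and 0.615 CPM in mutant replicates 3, 4 and 5. Its log2 fold change was 0.56 (SE 0.60, adjusted p = 0.736), and -0.36 without mutant replicate 3. Kif6, Kif9, Kif17 and Kif27 had adjusted p-values of 0.638, 0.850, 0.930 and 0.692. The 7 motile cilia markers in the table, none at 0, summed to 17.9 to 21.6 CPM in controls and 15.0 to 19.2 in mutants, and of 6 tested 4 were positive, 2 negative and 0 passed at an adjusted or unadjusted p under 0.05.

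None of the intraflagellar transport genes around these motors passed the test, and 1 Hedgehog gene did. Of 23 intraflagellar transport genes, 13 had positive and 10 negative fold changes, 0 passed, and the median was 0.05. At an unadjusted p under 0.05 there was 1, Wdr60, where 15% of all genes had such a p. Wdr60, which encodes a dynein-2 intermediate chain, had 22.9 ± 1.92 CPM in the control group and 17.8 ± 0.886 in the mutant group (SD, n = 3, log2 fold change -0.37, adjusted p = 0.116). Of 9 Hedgehog genes that work with Kif7, 1 fell and 8 did not pass, where 1.2% of all genes fell. At an unadjusted p under 0.05 there were 4 of 9, 3 lower and 1 higher, and 5 of 9 had groups apart, where the shares over all genes were 15% and 21.3%. The gene that fell was Gli1, the target and effector of the pathway, at 91.1, 76.7 and 98.0 CPM in control replicates 2, 3 and 5 and at 32.7, 39.8 and 39.3 CPM in mutant replicates 3, 4 and 5 (log2 fold change -1.25, SE 0.12, adjusted p = 0.00753). The groups were far apart. As with Kif7, mutant replicate 3 was lowest. Sufu, the inhibitor that holds the Gli factors, had a log2 fold change of 0.03 (adjusted p = 0.891), and Gli2 had -0.39 (adjusted p = 0.135). The Hedgehog receptor Ptch1 (log2 fold change -0.43, adjusted p = 0.226) and the ciliary protein gene Evc (0.30, adjusted p = 0.230) had groups apart. The mutants also carry Gli1-CreER, and what that allele itself does to the level of Gli1 was not tested.

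The 14 transport kinesins had a median log2 fold change of -0.10, with 10 negative and 0 passing. At an unadjusted p under 0.05 there were 3, 1 higher and 2 lower, where 15% of all genes had such a p. The sign of the class median turned with scaling to library totals (0.10), where the median of all genes was 0.21. Relative to all genes it was then -0.11, and the mitotic median 0.62. With that scaling 10 of 14 transport and 7 of 9 ciliary kinesins were positive, so small negative values given here depend on the scaling. Kif1c stood at 177, 175 and 202 CPM in control replicates 2, 3 and 5 and at 195, 186 and 177 CPM in mutant replicates 3, 4 and 5, with full overlap (log2 fold change 0.01, SE 0.08, adjusted p = 0.977). Kif5b, which carries mitochondria and many other cargoes, stood at 153, 155 and 154 CPM in the controls and 135, 151 and 139 CPM in the mutants. The control libraries were nearly equal and each mutant was lower (log2 fold change -0.12, SE 0.07, adjusted p = 0.478), but with library totals the value was 0.081. Kifc3, a minus-end motor of epithelial junctions and the Golgi, stood at 80.5, 65.9 and 66.5 CPM in controls and at 55.6, 50.2 and 51.3 CPM in mutants. These groups did not overlap (log2 fold change -0.44, SE 0.10, adjusted p = 0.0767), and DESeq2 called the gene (adjusted p = 0.00782).

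The positive side of the transport class was led by Kif3c, a kinesin-2 motor of neurons, at 22.6, 23.5 and 21.2 CPM in control replicates 2, 3 and 5 and 24.8, 28.9 and 29.0 CPM in mutant replicates 3, 4 and 5. Its groups were apart (log2 fold change 0.29, SE 0.09, adjusted p = 0.181), and 35.3% of its exon length is shared with 1110002L01Rik on the opposite strand. Kif1a, a motor of synaptic vesicle precursors, stood at 12.8 ± 1.93 and 14.9 ± 0.256 CPM (SD, n = 3, log2 fold change 0.22, adjusted p = 0.485). The neuronal heavy chains Kif5a (log2 fold change -0.08, adjusted p = 0.883) and Kif5c (0.04, adjusted p = 0.945) had overlapping groups. The 10 neuron markers summed to 58.8 to 64.6 CPM in controls and 78.2 to 82.7 in mutants. Tubb3 alone averaged 44.6 CPM in controls and 51.9 in mutants. Nefl, Nefm, Prph, Rbfox3 and Elavl3 did not pass the filter on low counts. Nefl, Nefm and Prph were each at 0 in 1 library. The 5 tested all had positive fold changes with 0 passing, where 52% of all tested genes were positive. The 10 Schwann cell markers, none at 0, summed to 47.8 to 52.4 and 55.1 to 63.5 CPM, with 9 positive and 0 passing. Their part in the values of Kif1a and Kif3c was not tested. The endosome motors Kif13a, Kif13b and Kif16b had log2 fold changes of -0.19, -0.28 and -0.05, and the cargo motors Kif1b, Kif21a, Kif21b and Kifc2 had -0.04, -0.14, -0.30 and -0.28, with the smallest adjusted p of 0.281 for Kif13b.

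Cargo adaptors and the opposing motor were near 0 as lists. Of 18 kinesin light chain and adaptor genes, 3 were positive and 15 negative, where 52% of all tested genes were positive. Of these 18, 0 passed, and the median was -0.09. At an unadjusted p under 0.05 there were 3, where 15% of all genes had such a p. Klc4, which encodes a light chain, had 35.6 ± 2.23 CPM in the control group and 28.5 ± 2.20 in the mutant group (SD, n = 3, log2 fold change -0.32, adjusted p = 0.129). Kifap3, the third subunit of heterotrimeric kinesin-2, had a log2 fold change of 0.18 (adjusted p = 0.311). Of 19 dynein and dynactin genes, which serve movement towards the microtubule minus end, 8 were positive, 11 negative and 0 passed, with a median of -0.02. At an unadjusted p under 0.05 there were 3, all lower, where 7.83% of all genes were lower at that level. Ndel1, a dynein regulator, came nearest to the threshold at 113 ± 12.2 and 81.7 ± 4.17 CPM (SD, n = 3, log2 fold change -0.47, adjusted p = 0.0534).

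The 3 kinesins outside these classes included a pair of related genes with opposite signs. Kif26a, which inhibits growth factor signalling in enteric neurons, stood at 144, 140 and 150 CPM in control replicates 2, 3 and 5 and at 118, 98.2 and 78.1 CPM in mutant replicates 3, 4 and 5. The controls were close together, and the mutants were lower and spread out (log2 fold change -0.56, SE 0.14, adjusted p = 0.0984). DESeq2 called it (adjusted p = 0.00579), as did the edgeR test without mutant replicate 3 (log2 fold change -0.71, adjusted p = 0.0397). It lies on chromosome 12 from 112146208 to 112181747. Kif26b, which acts in kidney development and cell adhesion, stood at 179, 147 and 169 CPM in the controls and at 181, 192 and 220 CPM in the mutants. Its groups did not overlap, by a narrow margin (log2 fold change 0.26, SE 0.11, adjusted p = 0.299). Kif2a, a depolymerase that also takes cilia apart, stood at 38.2 ± 1.50 and 39.5 ± 4.06 CPM (SD, n = 3, log2 fold change 0.05, adjusted p = 0.867).

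**Figure D5:**
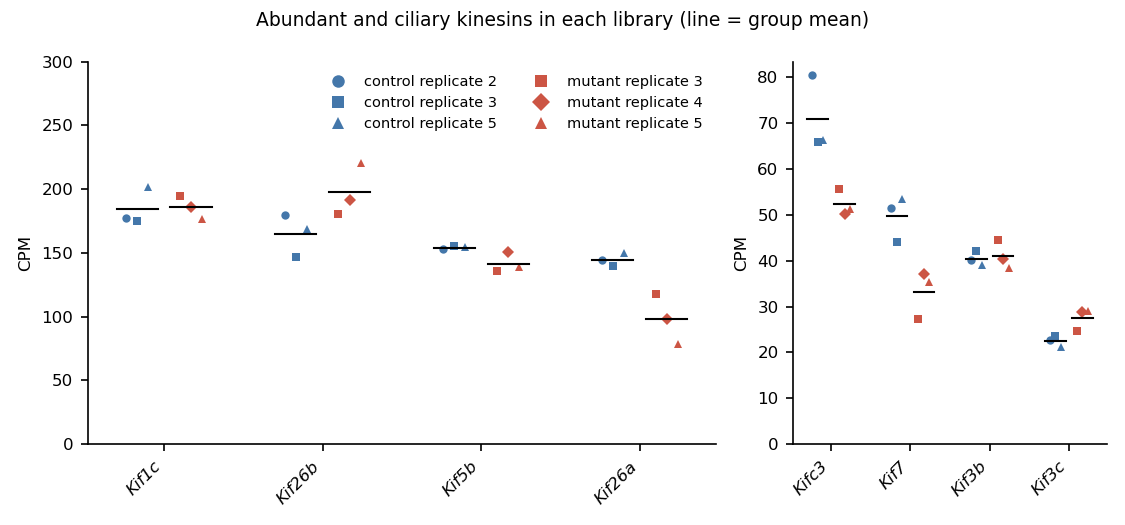
CPM of 8 non-mitotic kinesins (linear axes from 0) in each control and mutant library, with the group mean as a line. Kif26a, Kifc3 and Kif7 are lower in all mutant libraries than in all controls, while Kif1c and Kif3b overlap.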

How the data were processed

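RNA of the molar apex (RIN above 9 per the labels) was sequenced single-end with 75 cycles on a NextSeq500, per the labels' protocols. The submitters' processing notes name STAR 2.6.1d, Partek and the build mm10, with no role or order. The sources used here give no annotation or strandedness, so antisense overlaps may not be separated. The authors deposited expected counts per gene, of which 53.8% were whole within 0.001, and a table of normalized signal for 18665 genes, proportional to the count plus 1 within each library, used for 1 alternative.

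Expected counts were rounded, filtered with filterByExpr and scaled by TMM. The factors were 0.977, 0.949 and 0.872 in control replicates 2, 3 and 5. In mutant replicates 3, 4 and 5 they were 1.07, 1.04 and 1.11, so each mutant factor was above each control factor. Mutants were tested against controls with edgeR 4.0.16 (glmQLFTest, R 4.3.3), adjusted by Benjamini-Hochberg over all genes, and called under 0.05. The SE is the log2 fold change over the square root of F. Exon lengths and gene ends are from GENCODE M21, which matched all 40 members. Alternatives used limma 3.58.1 and DESeq2 1.42.0, other scalings and filters, a replicate block, an erythroid term and each library left out. The members and lists were chosen with earlier results of these data known. Values in every library are given for members with adjusted p under 0.2 and for the 2 most abundant of each class. Outside this rule they are also given for Kif19a. Of the pathway lists the called genes were to be named, at most 4 a list. Others named (Birc5, Racgap1, Tpx2, Wdr60, Sufu, Gli2, Ptch1, Evc, Klc4, Kifap3, Ndel1) were picked with their values known. Replicates within a group differed beyond counting noise (chi-square per degree of freedom 24.3 to 44). The scripts were tested on simulated data.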

Additional observations from a re-analysis of the deposited data

How the results depend on the processing

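With 3 libraries a group, the number of genes called depended on the setting. Over all genes, 114 were higher and 208 lower. DESeq2 gave 360 and 493, library totals 411 and 109, the replicate block 19 and 71, the erythroid term 2 and 8, and mutant replicate 3 alone against the controls (added after the data were seen) 15 and 54. Leaving out 1 library gave 1 to 105 higher and 10 to 138 lower. Kinesins passed in 3 settings. The mitotic kinesins Cenpe, Kif11, Kif20a, Kif23 and Kif4 were called by DESeq2 (5 higher), with library totals (5) and without mutant replicate 3 (0 to 5 over the libraries left out). DESeq2 also called 1 ciliary kinesin (Kif7) and 1 transport kinesin (Kifc3) lower, and Kif26a. The mitotic median was positive in every setting, at 0.33 with the erythroid term, 0.40 with mutant replicate 3 alone, 0.68 without Kifc1 and Kifc5b, and 0.50 to 0.82 with 1 library left out. The ciliary median was 0.20 with library totals, -0.076 with mutant replicate 3 alone and -0.10 to 0.0555 with 1 library left out. The transport median was -0.065 with the erythroid term, 0.10 with library totals, -0.15 with mutant replicate 3 alone, -0.14 with the replicate block and -0.13 to -0.062 with 1 library left out. Where a value moved, the cause was not tested. Numbers 3 and 5 are found among controls and mutants, and the labels do not say whether libraries of equal number are related. The correlation of their deviations across genes was 0.267 and -0.144, while pairs of unequal number ran from -0.447 to 0.3. Under the replicate block 0 kinesins were called and the mitotic median was 0.70. Depth limits Kif6, Kif17, Kif19a and Kif27, at 6 to 41 reads a library. Single kinesins changed sign in log2 fold change, none of them past the threshold, as follows. With library totals, Kif13a was 0.023, Kif16b 0.16, Kif1b 0.16, Kif21a 0.059, Kif3a 0.20, Kif5a 0.13, Kif5b 0.081 and Kif9 0.055. With the erythroid term, Kif13a was 0.027, Kif17 -0.087, Kif18a -0.058, Kif24 -0.39, Kif2a -0.086, Kif9 0.067 and Kifc5b -0.35. With mutant replicate 3 alone, Kif17 was -0.26, Kif18a -0.18, Kif21a 0.0084, Kif24 -0.29, Kif2a -0.048, Kif5c -0.15 and Kifc5b -0.64. With the replicate block, Kif1b was 0.019, Kif1c -0.019, Kif2a -0.065, Kif3a 0.018, Kif5a 0.066 and Kif9 0.036. With limma on the normalized signal, Kif3a was 0.006. With upper-quartile factors, Kif3a was 0.011. With 1 library left out the ranges that crossed 0 were Kif17 -0.23 to 0.25, Kif19a -0.36 to 0.97, Kif1b -0.10 to 0.019, Kif1c -0.028 to 0.084, Kif24 -0.22 to 0.24, Kif2a -0.042 to 0.092, Kif3a -0.060 to 0.047, Kif3b -0.037 to 0.071, Kif5a -0.24 to 0.024, Kif5c -0.10 to 0.14 and Kifc5b -0.030 to 0.69.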
